A study of Mus musculus with 2 samples.

Results

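A set of 10 genes of periportal hepatocyte metabolism were followed in single liver cells of healthy and CCl4-injured mice. They are Sds, Hal, Pck1, G6pc, Cps1, Ass1, Asl, Arg1, Gls2 and Hsd17b13, and were taken by name from the 30406 genes that both count matrices share and were matched by Ensembl identifier. Their levels were read in hepatic cells, chosen in each of 2 droplet libraries by 5 liver plasma-protein genes that are not among the members (Apoa1, Ttr, Fgb, Ahsg and Hpx), and the levels in the other cell classes gave the background.

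Blood enters the liver lobule at the portal tract and leaves at the central vein, and hepatocytes along that path divide their work. Cells near the portal tract carry more of the urea cycle, of glucose production and of amino acid breakdown, whereas cells near the central vein carry more glutamine synthesis and cytochrome P450 metabolism. CCl4 is turned into a toxic radical by the cytochrome Cyp2e1 of central hepatocytes, and repeated dosing is a common mouse model of liver fibrosis.

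One library held cells of healthy mice and the other cells of mice injured by repeated CCl4 injections, and both came from mice of genotype Col1a2CreER:Rosa26tdTomato, in which a Col1a2-driven, tamoxifen-inducible Cre switches on a red reporter in collagen-producing cells and their progeny. Livers were digested with enzymes and the cells purified on Nycodenz, and according to the study's methods leukocytes bearing CD45 were taken out with magnetic beads, although the cell type given in the labels is whole liver cells. The number of mice behind each library is not stated in the labels. With 1 library per group no difference between the groups could be tested, so every interval given here is a 95% interval that covers counting error only, and animal, library and treatment cannot be told apart.

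The healthy matrix held 6297 cells and 51122846 UMIs (unique molecular identifiers, 1 per captured transcript), and the CCl4 matrix 8460 cells and 97611831 UMIs. After filters on mitochondrial share and doublets 5602 and 7314 cells were kept, with a median of 6784 and 11876 UMIs per cell. The libraries had 10 cell barcodes in common. The level of members in droplets of other cell types differed between the libraries. Cps1 had 75.04 UMIs per 1000 endothelial-like cells in the healthy library and 2.65 UMIs per 1000 mesenchymal-like cells in the CCl4 library, whereas Ass1 had 236.7 and 260.4 and Asl 141.7 and 265.9 in the same classes. The part of free RNA in these values was not tested. Cell classes were rebuilt here by clustering with the members left out, and are called "-like" from marker genes.

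Hepatic cells were few. At least 5 UMIs of the 5 plasma-protein genes were counted in 2148 healthy and 249 CCl4 cells, but 58.1% of the healthy ones were cholangiocyte-like, 22.25% endothelial-like and only 14.39% hepatocyte-like. Healthy cholangiocyte-like cells outside the hepatic set had 23993 Ttr and 4263 Ahsg UMIs per 1000 cells, against 922.1 and 350.9 in endothelial-like cells, whereas Apoa1 stood at 588.5 against 516.0. The rule was therefore applied at a fixed depth as well, by also asking for 5 expected UMIs at 1000 UMIs per cell, which is 0.5% of a cell's UMIs. This left 376 healthy cells, 6.71% of those kept (exact binomial interval 6.07 to 7.40), and 169 CCl4 cells, 2.31% (1.98 to 2.68). In the healthy library 65 of these cells lay just inside the limit, at 0.5% to 0.6% of their UMIs, and 113 cells just outside it, at 0.4% to 0.5%. In the CCl4 library 22 cells lay just inside and 15 just outside.

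The 2 sets of hepatic cells differed in makeup and depth. Of the healthy cells, 248 were hepatocyte-like, 63 cholangiocyte-like, 40 endothelial-like and 25 in unnamed clusters. Of the CCl4 cells, 49 were hepatocyte-like and 113 belonged to unnamed cluster 18, in which hepatocyte markers were the most frequent but UMI counts were low. The median was 3209 UMIs per healthy cell and 1223 per CCl4 cell, and 47 healthy but no CCl4 cells had 20000 UMIs or more. All 14 hepatocyte markers were detected in both sets, with a summed level of 86481 UMIs per 1000000 UMIs (CPM) in healthy and 40600 CPM in CCl4 cells. The 10 cholangiocyte markers summed to 7233 CPM in healthy and 2460 CPM in CCl4 hepatic cells, and all 10 were detected in each. The 12 mesenchymal markers summed to 21.3 CPM in healthy cells, where Pdgfra, Pdgfrb, Des and Lrat were at 0, and to 1890 CPM in CCl4 cells, where all 12 were detected. The part of these other cell types in the differences below was not tested beyond the counts without them.

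All 10 members were matched by symbol to RefSeq genes of build GRCm38.p6. The urea cycle genes lie at chr1:67122426-67231267 (Cps1, ENSMUSG00000025991), chr2:31470270-31520670 (Ass1, ENSMUSG00000076441), chr5:130011258-130024381 (Asl, ENSMUSG00000025533) and chr10:24915207-24927470 (Arg1, ENSMUSG00000019987). The gluconeogenic genes lie at chr2:173153073-173159274 (Pck1, ENSMUSG00000027513) and chr11:101367716-101377903 (G6pc, ENSMUSG00000078650). The genes of amino acid breakdown lie at chr5:120476547-120483932 (Sds, ENSMUSG00000029597), chr10:93488768-93516761 (Hal, ENSMUSG00000020017) and chr10:128194635-128210004 (Gls2, ENSMUSG00000044005), and Hsd17b13 (ENSMUSG00000034528) at chr5:103955442-103977388.

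Promoters in the RefSeq table were matched for 5 of 10 members, Hal, Pck1, G6pc, Ass1 and Hsd17b13. Of these, 4 are printed because they span the response described below: Pck1, G6pc and Hal were lower in CCl4 hepatic cells and Ass1 was within 2-fold. Each run holds the 250 bases before the annotated transcription start, 5′ to 3′, with letters of searched motifs in capitals.
Pck1, chr2:173152823-173153072, + strand: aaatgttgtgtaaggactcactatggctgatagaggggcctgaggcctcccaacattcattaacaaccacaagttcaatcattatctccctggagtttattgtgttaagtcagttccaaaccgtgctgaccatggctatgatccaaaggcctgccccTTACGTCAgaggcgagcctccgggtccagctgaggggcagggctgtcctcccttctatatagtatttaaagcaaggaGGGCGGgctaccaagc
G6pc, chr11:101367466-101367715, + strand: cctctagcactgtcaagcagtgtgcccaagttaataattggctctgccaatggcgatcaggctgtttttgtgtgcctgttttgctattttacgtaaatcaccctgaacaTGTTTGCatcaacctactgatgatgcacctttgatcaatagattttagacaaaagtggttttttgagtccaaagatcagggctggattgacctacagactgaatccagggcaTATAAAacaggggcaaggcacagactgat
Hal, chr10:93488518-93488767, + strand: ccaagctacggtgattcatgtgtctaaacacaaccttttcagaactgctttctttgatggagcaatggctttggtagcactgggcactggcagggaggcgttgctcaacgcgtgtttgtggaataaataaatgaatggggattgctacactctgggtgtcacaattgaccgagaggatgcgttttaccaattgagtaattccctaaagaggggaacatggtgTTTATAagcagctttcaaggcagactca
Ass1, chr2:31470020-31470269, + strand: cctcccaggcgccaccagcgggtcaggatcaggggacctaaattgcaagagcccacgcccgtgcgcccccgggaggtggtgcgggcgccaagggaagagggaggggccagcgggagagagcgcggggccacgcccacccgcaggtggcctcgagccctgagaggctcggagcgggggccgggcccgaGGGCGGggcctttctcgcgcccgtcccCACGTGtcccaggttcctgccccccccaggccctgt

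The motifs were searched on both strands: the cAMP response element variant TTACGTCA, the half-site TGACG, the FOX forms TGTTTGC and TGTTTAC, the TATA box TATAAA, the GC box GGGCGG, the E-box CACGTG and the HNF4 core CAAAGTCCA. In Pck1, whose product PEPCK commits carbon to glucose and whose gene is a textbook target of glucagon and cAMP, TTACGTCA lay 93 to 86 bases before the start. Only 0.4475% of 32851 RefSeq promoters of the same length held these letters, and the TGACG half-site, present in 17.8% of promoters, overlapped them on the other strand. The Pck1 run also held a GC box at 16 to 11 bases before the start. G6pc, the catalytic subunit of glucose-6-phosphatase, held TGTTTGC at 141 to 135 bases before the start, a form found in 4.30% of promoters, and TATAAA at 29 to 24 bases before it. Hal, which opens histidine breakdown, held only TATAAA, on the minus strand at 28 to 23 bases before the start, and TATAAA stood in 12.4% of promoters. Ass1 held none of the cAMP, FOX or TATA letters but a GC box, found in 32.7% of promoters, and an E-box, found in 6.02%. Its run was 75.6% G and C, against 50.8% in Pck1, 45.6% in Hal, 43.2% in G6pc and a median of 52.4% over all promoters. The Hsd17b13 run, not printed, held the half-site TGACG on the minus strand at 33 to 29 bases before the start. None of these 5 promoters held TGTTTAC or CAAAGTCCA, which stood in 3.17% and 0.3835% of all promoters. These matches describe letters only.

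In CCl4 hepatic cells 5 of the 10 members were lower by at least 2-fold (G6pc, Hal, Cps1, Pck1 and Hsd17b13) and none was higher. This is to be read against the background, since 28% of the 9415 genes with at least 20 UMIs over both sets were lower by at least 2-fold and 8.64% higher. The median log2 ratio of the members was -1.26, against -0.28 over all genes tested and -0.91 over the 5 plasma-protein genes. Of those 5 genes, 2 were lower (Fgb at 0.209 and Hpx at 0.448) and 3 within 2-fold. The count of members called depended on which cells were taken. With 5 UMIs as counted and no fixed-depth condition, 3 members were lower and the median log2 ratio of the members was 0.054. In that setting 3 members were higher, Arg1 at 4.07, Sds at 2.94 and Ass1 at 2.20. With a mitochondrial limit of 10%, 3 members were lower. Summed over all hepatic cells, the urea cycle genes after Cps1 were within 2-fold, and G6pc, Hal, Cps1 and Pck1 had the lowest ratios.

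**Figure D1:**
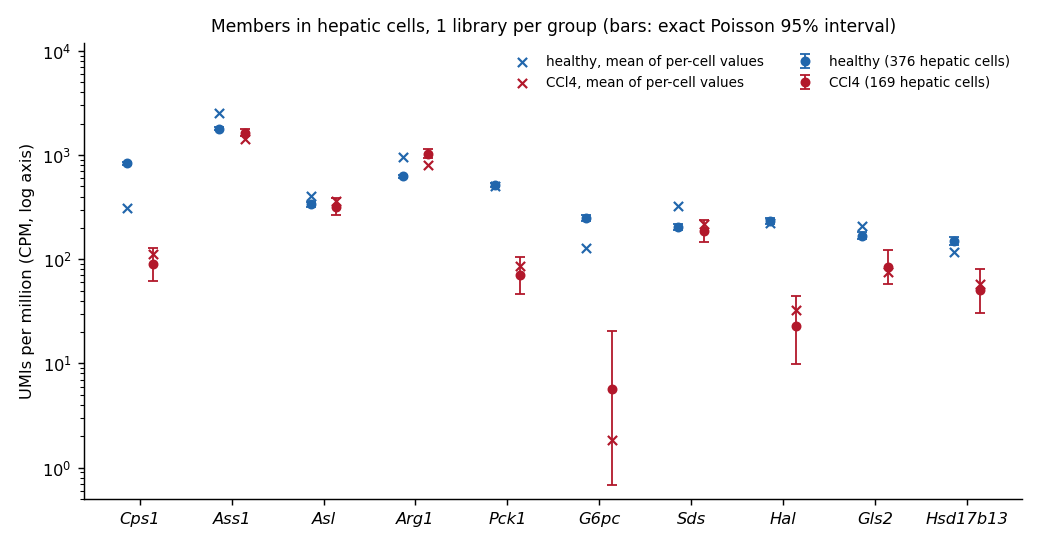
CPM (log axis) of each member in hepatic cells of the healthy (blue) and CCl4 (red) libraries, with circles for summed UMIs, bars for the exact Poisson 95% interval and crosses for the mean of per-cell values. G6pc, Cps1, Hal and Pck1 sit far apart in the 2 libraries, whereas Asl nearly coincides. By summed UMIs Ass1 nearly coincides and Arg1 lies higher in CCl4, but by the per-cell mean both lie lower in CCl4.

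Cps1, Ass1, Asl and Arg1 encode 4 enzymes of the urea cycle, which turns ammonia into urea. Cps1, the mitochondrial enzyme that brings ammonia into the cycle, had 2780 UMIs in healthy hepatic cells, or 833 CPM (803 to 865), and 32 UMIs in CCl4 hepatic cells, or 90.8 CPM (62.1 to 128). The ratio of CCl4 to healthy was 0.109 (0.0744 to 0.154). Most of the healthy signal came from few cells: 2487 of the 2780 UMIs, 89.5%, lay in the 47 cells with 20000 UMIs or more, which held 57.6% of all hepatic UMIs. Without these cells the ratio was 0.438, and with cells of 500 to 1000 UMIs only it was 0.876 (0.271 to 2.77).

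Ass1, which joins citrulline and aspartate, was the most abundant member in both sets. It had 5987 UMIs and 1795 CPM (1749 to 1841) in healthy cells and 580 UMIs and 1646 CPM (1515 to 1785) in CCl4 cells, a ratio of 0.917 (0.841 to 0.999). When every cell weighed the same the mean was 2557 CPM in healthy and 1420 CPM in CCl4 cells, a ratio of 0.555. Within bins of UMIs per cell the Ass1 ratio was 0.443 (0.311 to 0.624) at 500 to 1000 UMIs, 0.631 (0.511 to 0.775) at 1000 to 2000, 0.431 (0.366 to 0.505) at 2000 to 5000 and 1.12 (0.965 to 1.29) at 5000 to 20000. Asl, which splits argininosuccinate into arginine and fumarate, stood at 336 CPM (317 to 356) and 321 CPM (264 to 386), a ratio of 0.954 (0.779 to 1.16). The Asl intervals overlapped, and over the alternatives that kept the hepatic limit at 5 UMIs at fixed depth its ratio stayed between 0.846 and 1.05. In the bins of UMIs per cell, from the shallowest, the Asl ratio was 0.811 (0.402 to 1.61), 1.035 (0.630 to 1.68), 0.603 (0.412 to 0.861) and 0.875 (0.570 to 1.30). CCl4 hepatic cells of 500 to 1000 UMIs had 232.9 Asl UMIs per 1000 cells, against 265.9 in mesenchymal-like cells.

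Arg1, which releases urea from arginine, had 2080 UMIs and 623 CPM (597 to 651) in healthy cells and 364 UMIs and 1033 CPM (930 to 1145) in CCl4 cells, a ratio of 1.66 (1.48 to 1.85). The direction rested on the deeper cells. In cells of 500 to 1000 UMIs the ratio was 0.583 (0.365 to 0.917), in cells of 5000 to 20000 UMIs it was 3.01 (2.51 to 3.60), and 85 of the 364 CCl4 UMIs were counted in 1 cell. With every cell weighing the same the ratio was 0.833.

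The other genes of the cycle were read from a list of 8 that holds these 4 members. Only Cps1 was lower by at least 2-fold, the other 7 were within 2-fold, and the median log2 ratio of all 8 was -0.30. Otc, the enzyme between Cps1 and Ass1, stood at 502 CPM in healthy and 363 CPM in CCl4 cells, a ratio of 0.723 (0.599 to 0.866). Nags, which makes the activator that Cps1 requires, was at 56.6 and 73.8 CPM, a ratio of 1.30 (0.829 to 1.97). Slc25a15 had a ratio of 0.662 (0.468 to 0.913) and Slc25a13 of 0.523 (0.306 to 0.839), so both intervals lay below 1, as did that of Otc.

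Pck1 and G6pc stand at the entry and the exit of gluconeogenesis. Pck1 had 1729 UMIs and 518 CPM (494 to 543) in healthy hepatic cells and 25 UMIs and 70.9 CPM (45.9 to 105) in CCl4 cells, a ratio of 0.137 (0.0883 to 0.203). It was lower by more than 2-fold in each of the 4 bins of UMIs per cell, from 0.216 (0.0992 to 0.420) at 1000 to 2000 UMIs to 0.0618 (0.00744 to 0.225) at 5000 to 20000 UMIs. G6pc had 837 UMIs and 251 CPM (234 to 268) in healthy cells and 2 UMIs and 5.67 CPM (0.687 to 20.5) in CCl4 cells. The ratio was 0.0226 (0.00273 to 0.0820), the lowest among the members. Of the healthy G6pc UMIs, 702 lay in the 47 deepest cells, of which 43 had a G6pc UMI. Without these cells the ratio was 0.0594, and in cells of 2000 to 5000 UMIs 32 healthy UMIs in 80 cells stood against 0 in 33 CCl4 cells, an upper limit of 0.324 for the ratio.

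In a list of 9 gluconeogenic genes 4 were lower, 5 within 2-fold and none higher, with a median log2 ratio of -0.60. Ppargc1a, with 43 UMIs in healthy and 0 in CCl4 cells, was among the 5 because a count of 0 was taken as 3 UMIs. Besides the members, the lower genes were Pcx, pyruvate carboxylase, with 424 UMIs in healthy and 2 in CCl4 cells and a ratio of 0.0447 (0.00539 to 0.162), and Slc37a4, the carrier that brings glucose-6-phosphate to G6pc, with 203 and 3 UMIs and a ratio of 0.140 (0.0286 to 0.415). Fbp1, fructose-1,6-bisphosphatase, was at 702 CPM in healthy and 817 CPM in CCl4 cells, a ratio of 1.16 (1.03 to 1.32). The genes of this pathway thus did not share 1 ratio.

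Sds, Hal and Gls2 take amino acids apart. Sds, serine dehydratase, had 680 UMIs and 204 CPM (189 to 220) in healthy cells and 66 UMIs and 187 CPM (145 to 238) in CCl4 cells, a ratio of 0.919 (0.703 to 1.18). That value depended on the mix of depths: in the 4 bins of UMIs per cell, from the shallowest, the Sds ratio was 0.890 (0.299 to 2.60), 0.690 (0.408 to 1.14), 0.436 (0.273 to 0.668) and 0.378 (0.170 to 0.734). Without the 47 deepest healthy cells it was 0.665, and with every cell weighing the same 0.666. Hal, histidine ammonia-lyase, had 782 UMIs and 234 CPM (218 to 251) in healthy cells and 8 UMIs and 22.7 CPM (9.80 to 44.7) in CCl4 cells. Its ratio was 0.0969 (0.0417 to 0.192), and no CCl4 hepatic cell held more than 1 UMI of it, against up to 44 in a healthy cell. Gls2, the liver glutaminase that frees ammonia from glutamine, stood at 169 CPM (155 to 183) and 85.1 CPM (57.4 to 122). Its ratio of 0.505 (0.338 to 0.730) lay just above the 2-fold limit, and it crossed that limit when every cell weighed the same (0.362).

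Histidine breakdown could be followed past Hal. Uroc1, the next enzyme, was at 0.390 (0.255 to 0.573) and Amdhd1, the one after it, at 0.467 (0.296 to 0.702) of the healthy level, while Ftcd, the last, was at 0.522 (0.343 to 0.763). In the list of 18 genes of amino acid breakdown 10 were lower, 1 was higher and 7 were within 2-fold, with a median log2 ratio of -1.15. Among the lowest after Hal were Aass of lysine breakdown, with a ratio of 0.153 (0.0557 to 0.335), and Gldc of glycine cleavage, with 0.219 (0.0797 to 0.484). The 1 higher gene was Asrgl1, an asparaginase-like enzyme, with 38 UMIs in healthy and 20 in CCl4 cells and a ratio of 4.98 (2.75 to 8.78).

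Hsd17b13, a hepatocyte enzyme that sits on lipid droplets, had 497 UMIs and 149 CPM (136 to 163) in healthy cells and 18 UMIs and 51.1 CPM (30.3 to 80.7) in CCl4 cells, a ratio of 0.343 (0.202 to 0.548). It was no longer lower by 2-fold with a mitochondrial limit of 10% (0.531), with 3 plasma-protein UMIs in place of 5 (0.6045), with 5 as counted (0.782) or in cells of 500 to 2000 UMIs (0.8365), and in cells of 500 to 1000 UMIs it was 1.002 (0.2305 to 4.353), with 5 UMIs in each library. In a list of 10 lipid-droplet and HSD17B genes 7 had enough UMIs, of which 4 were lower and 3 within 2-fold. Hsd17b11, a close paralog, was at 0.219 (0.0875 to 0.458), while Plin2, a lipid-droplet coat protein, was at 0.898 (0.706 to 1.13).

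Among 10 regulators of these genes 6 were lower, 1 higher and 3 within 2-fold, with a median log2 ratio of -1.51. Of all genes tested, 28% were lower by at least 2-fold, which is the background for this and the other lists. The lowest was the glucagon receptor gene Gcgr, with 175 UMIs in healthy and 2 in CCl4 cells and a ratio of 0.108 (0.0130 to 0.397). Insr, the insulin receptor, followed with 135 and 2 UMIs and a ratio of 0.140 (0.0168 to 0.516), and Creb3l3, a liver bZIP factor, with 374 and 8 UMIs and 0.202 (0.0868 to 0.403). Hnf4a, a central hepatocyte factor, stood at 0.996 (0.670 to 1.44), and Onecut1 at 2.09 (1.05 to 3.85). Ratios of listed genes that are not members, the landmarks below included, are over summed UMIs and were not taken within bins of depth. The 47 healthy cells with 20000 UMIs or more, which held 57.6% of healthy hepatic UMIs, had no CCl4 counterpart. The part of depth in these ratios was not tested.

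**Figure D2:**
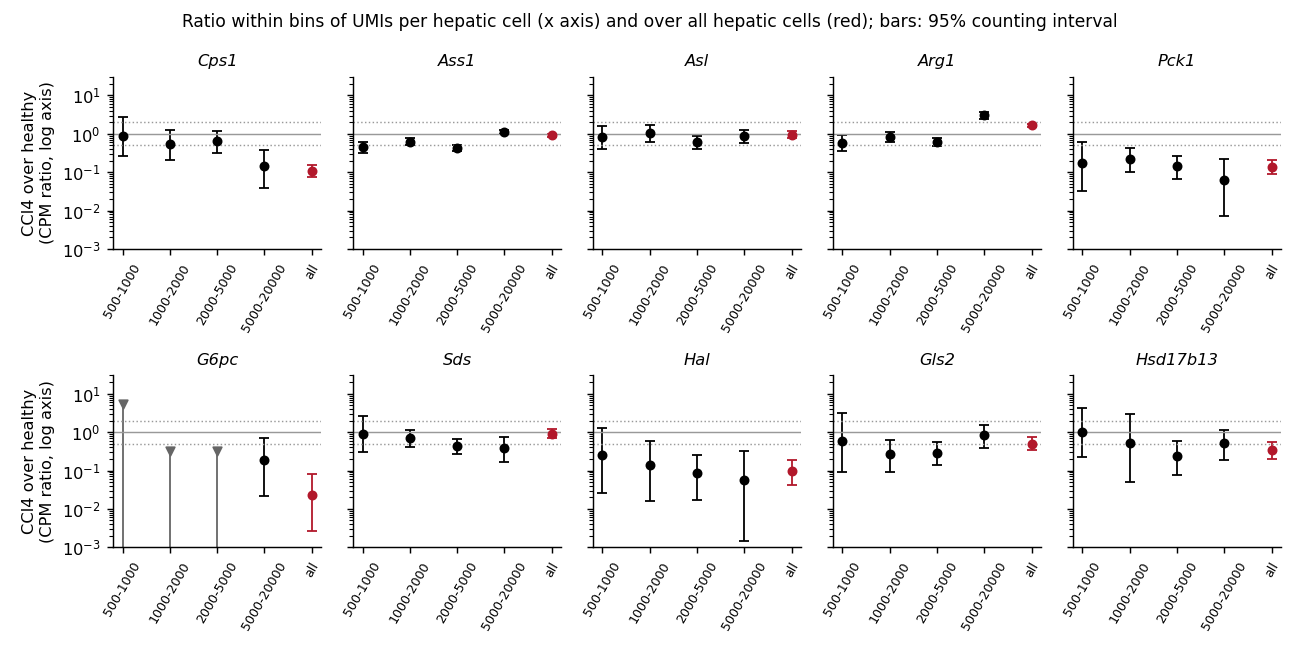
CPM ratio of CCl4 to healthy hepatic cells (log axis) for each member within bins of UMIs per cell and over all hepatic cells (red), with 95% counting intervals; grey triangles are upper limits where CCl4 cells held 0 UMIs, and dotted lines mark 2-fold. Pck1 and Hal sit below 0.5 in every bin, Cps1 only in the deepest, and Arg1 moves from below 1 to above it.

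The members varied in how far their level went with the depth of a cell. Across the 304 healthy hepatic cells with at least 1000 UMIs, Pearson's r between a member's log2 level and the log2 UMIs of the cell was 0.51 for Cps1 and 0.24 for G6pc, near 0 for Hal at -0.0028 and -0.28 for Arg1. These cells share 1 library, so the values are descriptions. In each of the 4 depth bins the ratio was below 0.5 for Pck1 and Hal, although the Hal interval in the shallowest bin reached 1.25. A mitochondrial limit of 10% in place of 30% moved Cps1 to 0.684 and Hsd17b13 to 0.531 and so ended both calls, and it left Pck1 at 0.202, Hal at 0.150 and G6pc at 0.0716. Median mitochondrial share was 3.11% in healthy and 0.856% in CCl4 hepatic cells.

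Detection at a fixed depth gave a similar split without letting deep cells weigh more. Each cell was thinned to 1000 UMIs, which 304 healthy and 96 CCl4 hepatic cells reached and 72 and 73 did not. A UMI of at least 1 member remained in 76.7% of the healthy cells (71.5 to 81.3) and 80.4% of the CCl4 cells (70.8 to 87.6) that reached this depth. Before thinning, 88.0% and 79.9% of all 376 and 169 hepatic cells held a member UMI, so these shares are over different sets of cells. Ass1 was detected in 64.5% of healthy (58.8 to 69.9) and 62.6% of CCl4 cells (52.0 to 72.2), and Arg1 in 47.7% (42.0 to 53.5) and 44.0% (33.6 to 54.3), so the intervals overlapped for both. Pck1 was detected in 32.1% (27.01 to 37.8) and 9.49% (4.38 to 17.0), Hal in 18.9% (14.5 to 23.6) and 2.75% (0.649 to 8.86), and G6pc in 12.0% (8.72 to 16.4) and 0.324% (0 to 3.77), and these intervals did not overlap.

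Cps1 was detected at that depth in 21.4% of healthy (16.9 to 26.4) and 8.77% of CCl4 cells (3.67 to 15.8), again without overlap, and Sds in 24.4% (19.6 to 29.6) and 16.0% (9.02 to 24.5). As background, thinned endothelial-like cells of the healthy library had a UMI of Cps1 in 1.77% and of Ass1 in 4.89% of 3313 cells, and mesenchymal-like cells of the CCl4 library in 0.0282% and 1.80% of 3375 cells. Median depth before thinning was 5967 UMIs in the endothelial-like and 13532 in the mesenchymal-like cells.

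**Figure D3:**
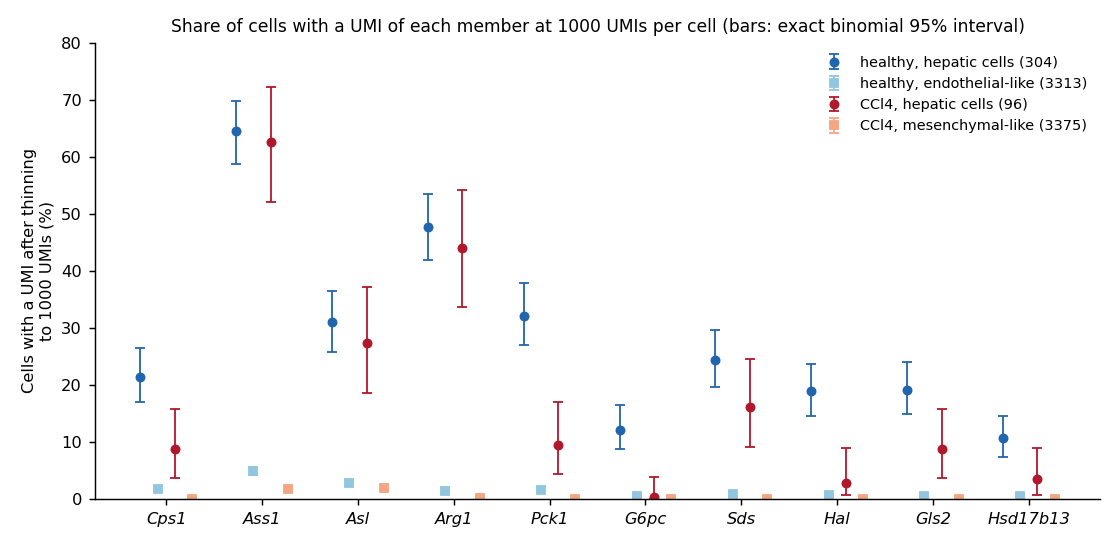
Share of cells with a UMI of each member after thinning every cell to 1000 UMIs, in hepatic cells (circles) and in the most numerous other class of each library (squares), with exact binomial 95% intervals. Ass1, Asl and Arg1 have overlapping intervals in the 2 libraries, and Pck1, G6pc, Hal and Cps1 do not.

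Periportal placement could be checked in the healthy library, where 96 hepatic cells, all hepatocyte-like, carried at least 10 UMIs of 6 portal and 9 central landmark genes that are not members. Ranked by the portal share of those UMIs and cut into terciles of 32 cells each, they gave a portal, a middle and a central set. Median depth was 22712 UMIs per cell in the central, 19226 in the middle and 8396 in the portal tercile. The part of depth in the gradients below was not tested. Of the 10 members, 6 were higher in the portal than in the central tercile by at least 2-fold and none was lower, against 3.43% of 5044 genes higher and 8.09% lower. These counts describe cells of 1 library and were not tested.

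Sds had 1 UMI in the central tercile, 145 in the middle and 255 in the portal tercile, or 1.25, 181 and 456 CPM. The portal to central ratio of 365 rested on that single UMI and had an interval from 64.8 to 14451. Hal stood at 25.03, 330 and 626 CPM in that order, a ratio of 25.01 (15.9 to 41.5). Hsd17b13 stood at 37.6, 201 and 406 CPM, a ratio of 10.8 (7.37 to 16.4), and Gls2 at 33.8, 220 and 351 CPM, a ratio of 10.4 (6.92 to 16.2). These 4 members were the most portal of the set.

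The rest were graded more gently. Pck1 went from 363 to 651 and 997 CPM, a ratio of 2.75 (2.38 to 3.17), and Ass1 from 1093 to 1867 and 2828 CPM, a ratio of 2.59 (2.38 to 2.82). Asl (1.98, 1.64 to 2.39) and Arg1 (1.90, 1.65 to 2.20) lay just inside the 2-fold limit. Cps1, at 1004, 1376 and 1406 CPM, and G6pc, at 313, 356 and 437 CPM, both had a ratio of 1.40, with intervals of 1.27 to 1.55 and 1.17 to 1.67. G6pc reached 2.63 and Arg1 2.24 when every cell weighed the same.

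**Figure D4:**
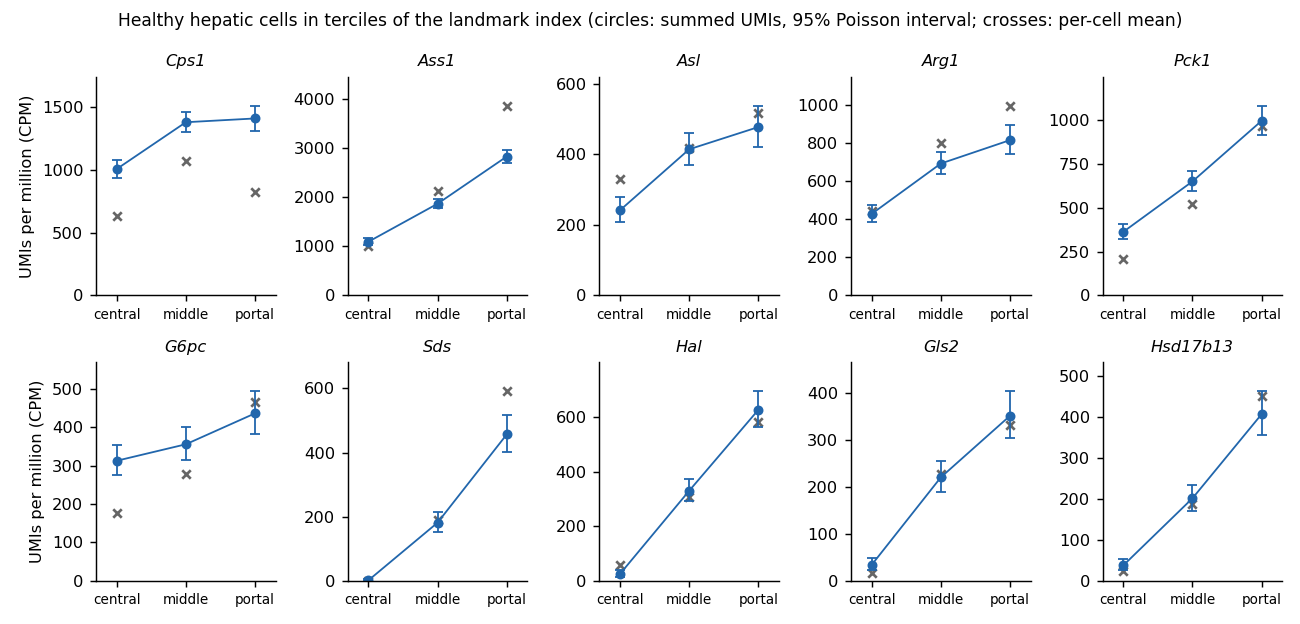
Level of each member (CPM, linear axes from 0) in the central, middle and portal terciles of 96 healthy hepatic cells, with circles for summed UMIs, bars for 95% Poisson intervals and crosses for per-cell means. Sds, Hal, Gls2 and Hsd17b13 climb from near 0, whereas Cps1 and G6pc are high in every tercile.

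Set side by side, how portal a member was in the healthy library and how low it stood in the CCl4 library did not follow 1 order. Sds, with the highest portal to central ratio, had a CCl4 to healthy ratio of 0.919 by summed UMIs, but 0.436 and 0.378 in the deepest bins of UMIs per cell that both libraries filled. Hal, the next, had 0.0969. Cps1 and G6pc, the least graded by summed UMIs over terciles of unlike depth, had 0.109 and 0.0226. Landmarks that are not members were lower at both ends of the lobule: 5 of 6 portal landmarks, among them the cytochrome gene Cyp2f2 with 1787 UMIs in healthy and 3 in CCl4 cells and a ratio of 0.0159 (0.00327 to 0.0465), and 4 of 9 central landmarks, among them Cyp2e1 with 4718 and 26 UMIs and 0.0522 (0.0340 to 0.0765). One central landmark, Lect2, was higher, at 2.74 (2.21 to 3.38). Only 7 CCl4 hepatic cells had the 10 landmark UMIs an index needs, so zonation of the members was not assessed in that library.

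Among the genes whose level over the 304 healthy hepatic cells was most like that of the summed members were Bhmt, betaine-homocysteine methyltransferase (r = 0.84), Gpx1, a glutathione peroxidase (0.81), Apoc3, an apolipoprotein (0.80), and Gnmt, glycine N-methyltransferase (0.79), out of 4149 genes ranked. Among the members, Ass1 had the highest r with the sum of the other 9 (0.84) and Cps1 and G6pc the lowest (0.21 and 0.24). All these cells share 1 library, and sampling depth enters each value.

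Some cells with clear member expression failed the plasma-protein rule. In the hepatocyte-like cluster of the healthy library 71 cells fell outside it, with 4768 CPM of Ass1 (4477 to 5074), 598 CPM of Sds (498 to 713) and 1699 CPM of Arg1 (1527 to 1886), against 2331, 262 and 812 CPM in the 248 hepatocyte-like cells inside. They had 139 CPM of Cps1 and 23.9 CPM of G6pc, against 1084 and 321 CPM inside, and 3284 CPM of albumin against 32990. In unnamed cluster 18 of the CCl4 library, 161 cells fell outside, with 1822 CPM of Ass1 (1623 to 2038) and 548 CPM of Sds (442 to 672), against 1203 and 218 CPM in the 113 cells inside. With all cells of these 2 clusters in place of the rule, the members lower remained 5, with Cps1 at 0.0882, G6pc at 0.0136, Hal at 0.116, Pck1 at 0.226 and Hsd17b13 at 0.269, and Sds came to 1.36.

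Outside hepatic cells most members had a low and similar number of UMIs per droplet in the larger classes of the healthy library. Cps1 had 75.04 UMIs per 1000 endothelial-like, 90.5 per 1000 cholangiocyte-like and 73.6 per 1000 mesothelial-like cells, and Arg1 had 60.9, 87.2 and 64.9. Of the 10 members, 3 (Sds, G6pc and Asl) were higher by at least 2-fold per droplet in cholangiocyte-like than in endothelial-like cells, where 62.3% of 13771 genes were. In mesothelial-like cells 3 were (Hal, Asl and G6pc), where 56.9% of 12810 genes were. Both classes had more UMIs per cell than endothelial-like cells.

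Hal was the clear exception, in mesothelial-like cells, the class that carries markers of the serosal lining of the liver. In the healthy library 231 such cells held 596 Hal UMIs, 155 CPM (143 to 168), or 2580 UMIs per 1000 cells against 26.5 per 1000 endothelial-like cells. A Hal UMI was seen in 69.7% of them (63.3 to 75.6), at a median of 18546 UMIs per cell, and in 12.7% (8.65 to 17.7) after thinning to 1000 UMIs. The same cells held 6 Sds, 17 Pck1 and 17 Cps1 UMIs. In the CCl4 library 961 mesothelial-like cells held 264 Hal UMIs, 14.1 CPM (12.5 to 15.9), and 3 Cps1 and 0 Pck1 UMIs, and 3403 mesenchymal-like cells held 18 Hal UMIs. The CCl4 to healthy ratio of Hal in this class was 0.0909 (0.0784 to 0.105), near its ratio of 0.0969 in hepatic cells. Every other member was lower in this class too. Besides Hal, only Asl and G6pc were at least 2-fold above endothelial-like cells per droplet in the healthy library. Cps1, for example, had 73.6 UMIs per 1000 mesothelial-like and 75.04 per 1000 endothelial-like cells. Sds rested on 6 healthy and 3 CCl4 UMIs. The part of free RNA in the ratios of the other members was not tested. Ass1 was at 0.117 (0.0805 to 0.169), and Asl was the least low at 0.554 (0.463 to 0.665). The classes were formed by different clusters in the 2 libraries, cluster 7 with 228 of the healthy cells and cluster 19 with 887 of the CCl4 cells. These ratios thus compare those clusters.

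Asl, a gene that many cell types use to make arginine, was present in every class. It stood at 55.9 CPM (52.5 to 59.6) in healthy cholangiocyte-like cells, 44.0 CPM (37.6 to 51.2) in mesothelial-like and 24.6 CPM (22.4 to 26.8) in endothelial-like cells, and at 24.4 CPM (22.2 to 26.7) in mesothelial-like and 19.9 CPM (18.6 to 21.2) in mesenchymal-like cells of the CCl4 library. Ass1 had 886 UMIs in the 3403 CCl4 mesenchymal-like cells, 19.4 CPM (18.2 to 20.8), where Cps1 had 9, Pck1 5 and G6pc 2. Across the 4 mesenchymal-like clusters Ass1 ranged from 15.6 to 25.8 CPM. In mesothelial-like cells of the same library Ass1 was at 2.57 CPM, 48 UMIs in 961 cells. Counted against plasma-protein UMIs, 3 of 23 class values of members in the healthy library and 9 of 10 in the CCl4 library lay at least 2-fold above hepatic cells, where 97.3% and 99.9% of values of all genes did. Since hepatic cells were chosen for a high share of these UMIs, nothing is read from these counts.

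Per droplet, Sds and G6pc were higher in healthy cholangiocyte-like than in endothelial-like or mesothelial-like cells. Sds had 155 UMIs in 1215 cells, 128 per 1000 against 31.2 per 1000 endothelial-like cells, a ratio of 4.09 (3.18 to 5.28). G6pc had 130 UMIs, 107 per 1000 against 21.1, a ratio of 5.08 (3.78 to 6.86). No cell held more than 6 UMIs of Sds or 4 of G6pc, and at 1000 UMIs the share of cells with a UMI was below 1% for each. Cholangiocyte-like cells had a median of 11720 UMIs against 5967 in endothelial-like cells. As CPM, Sds stood at 8.98 in cholangiocyte-like and 5.40 in endothelial-like cells, and G6pc at 7.53 and 3.65. In endothelial-like cluster 1, with a median of 1978 UMIs per cell, Sds was at 15.85 CPM and G6pc at 7.09 CPM.

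**Figure D5:**
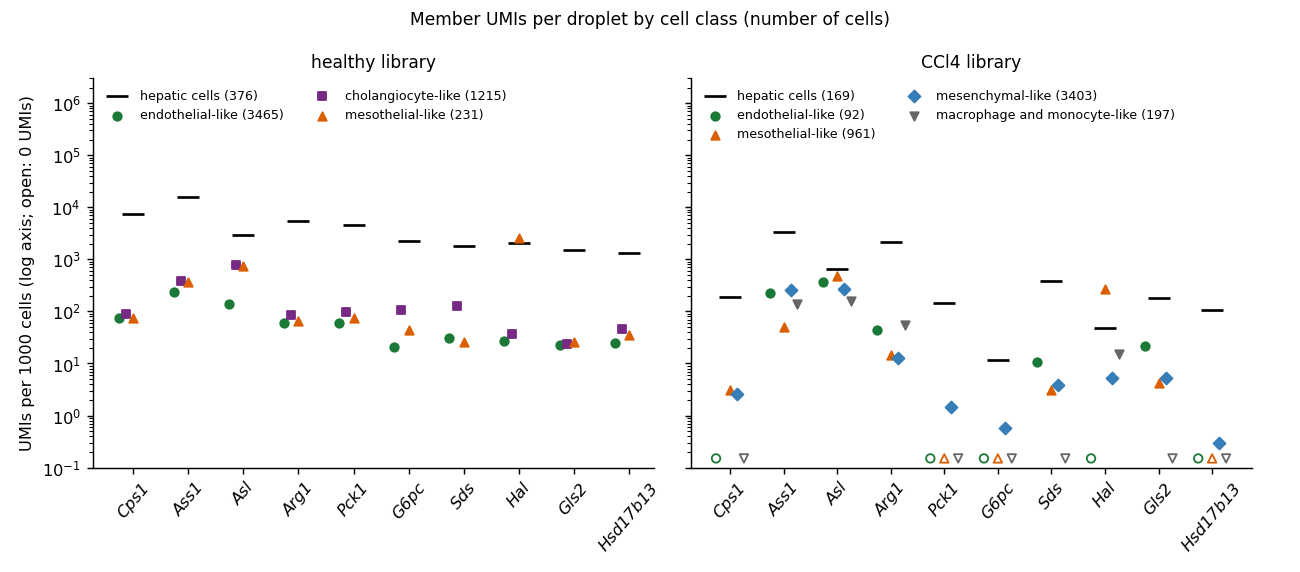
Member UMIs per 1000 cells (log axis) in hepatic cells (black bars) and in the other cell classes of the healthy (left) and CCl4 (right) libraries, with the number of cells in the key and open symbols at the foot for 0 UMIs. In the healthy library the other classes lie together for most members, Hal in mesothelial-like cells reaches the hepatic level, and in the CCl4 library Ass1 and Asl stand above the remaining members in mesenchymal-like cells.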

How the data were processed

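The deposited values were raw UMI counts per gene and cell, made by the authors with Cell Ranger (version 3.1.0 for the healthy and 6.0.1 for the CCl4 matrix, per the file headers). Per the labels the libraries followed a 10x Genomics 3′ protocol, and the submitters' processing notes name the builds mm10 and GRCh38; the mouse Ensembl identifiers fit the first, which is GRCm38. Counts are already collapsed to molecules, so PCR copies do not enter, but free RNA does, and no correction for it is known to have been made.

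Cells with at least 500 UMIs, 200 genes and at most 30% mitochondrial UMIs were kept, and doublets were called by Scrublet at 0.8% per 1000 cells in scanpy 1.11.5 (277 healthy and 487 CCl4 cells removed). Cells were clustered jointly (2000 variable genes, 10 principal components, 20 neighbours, Leiden resolution 1), giving 24 clusters, 18 of them named from at least 3 markers. UMIs were summed over cells as CPM, with exact Poisson intervals for levels, exact conditional binomial intervals for ratios and exact binomial intervals for shares; thinning used the exact hypergeometric expectation, and the interval the rounded number of cells. For calls and median ratios, also over all genes, a count of 0 was taken as 3 UMIs. This put Ppargc1a and the central landmark Slc1a2, with 0 UMIs in CCl4 hepatic cells, within 2-fold. A gene was called lower or higher at a ratio of at most 0.5 or at least 2 with at least 20 UMIs over both sets. The lists' genes named are those past that limit, at most 4 per list by size, plus genes given as exceptions. Genes within 2-fold, such as Otc, Nags, Fbp1, Ftcd, Plin2 and Hnf4a, were named after their values were seen. The ratio, its interval and the thinning were tested on simulated data. The members, gene lists and the fixed-depth condition were chosen with earlier results of these data known. Alternatives changed the hepatic rule, the mitochondrial limit, doublet removal, depth, weighting, scaling (edgeR 4.0.16 TMM) and landmarks. Positions and promoters came from RefSeq (GRCm38.p6). The 5 genes most like the summed members were ranked by Pearson's r among genes detected in at least 20% of the cells; 1 of them is not reported here.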

Additional observations from a re-analysis of the deposited data

Results flagged for a closer look

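Cells removed for a mitochondrial share above 30% still held member UMIs. In the healthy library 339 cells were removed by that limit, 69 of them met the hepatic rule, and their 10 members summed to 3515 CPM (2005 UMIs), where the limit that a count of 0 allows is 5.26 CPM. Cps1 stood at 1050 CPM, G6pc at 468 CPM and Ass1 at 466 CPM in these cells, against 833, 251 and 1795 CPM in the hepatic cells that were kept. In the CCl4 library 504 cells were removed, 4 met the rule, and their members summed to 1090 CPM (27 UMIs), where that limit is 121 CPM. Both values were picked out because they lie in cells that the main comparisons left out. An alternative with no mitochondrial limit had 441 healthy and 171 CCl4 hepatic cells. It gave 5 members lower and a median log2 ratio of -1.229.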

How the results depend on the processing

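No paired analysis was possible because each group is 1 library. Without the fixed-depth condition there were 2148 healthy hepatic cells, 3 members were lower and 3 higher, the median log2 ratio turned to 0.054, all 10 members were portal by at least 2-fold, and a member was detected at 1000 UMIs in 25.2% of healthy and 61.2% of CCl4 cells. With 3 UMIs in place of 5 there were 808 healthy cells, 2 members were higher and the median was -0.37; with 10 UMIs there were 165 healthy and 78 CCl4 cells. A mitochondrial limit of 10% gave 3 members lower and a median of -0.64. With the UMIs per droplet of healthy endothelial-like and CCl4 mesenchymal-like cells taken off, an alternative chosen after seeing the data, 1 member was higher, Arg1 at 2.34. At 500 UMIs a member was detected in 68.6% of healthy and 63.5% of CCl4 cells, and at 2000 UMIs in 82.9% of healthy cells. The cause of these shifts was not tested. Of the main values under alternatives 67 moved by less than the limits used, 17 moved by more and 1 reversed. Of the values not counted as main, such as ratios of single members, 170 stayed within the limits and 120 moved by more. Alternatives by depth (500 to 20000 and 500 to 2000 UMIs), without cells of other classes and with whole clusters were also chosen after seeing the data, and gave between 4 and 6 members lower. Pck1, Hal and G6pc were below 0.5 under every alternative except for Pck1 at 0.530 without the fixed-depth condition. Depth limits G6pc, Hal and Hsd17b13 in CCl4 cells, which rest on 2, 8 and 18 UMIs.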
